A study of Leucoraja erinaceus with 4 samples.

Results

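Body skin and liver of 1 adult little skate (Leucoraja erinacea, a cartilaginous fish) were compared by poly(A)-selected RNA sequencing, with 1 library per tissue. The skin came from an area described as free of electroreceptors, and the liver piece weighed 4 mg per the labels. Both libraries were made from 1 µg of total RNA, and the same animal also gave libraries of ampullary receptor cells and ampullary canals. An assembled gene, the unit counted, is a group of assembled transcripts treated as 1 gene. It entered the comparison when at least 10 reads fell on it in skin or liver. This kept 26531 of the 186064 assembled genes of the files, against 36326 when all 4 libraries were allowed to contribute. The 26531 held 99.1% of the 11716890 skin reads and 99.2% of the 11071249 liver reads.

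Fish skin is a living barrier: an epidermis of epithelial and mucus-secreting cells lies over a dermis rich in collagen, and in skates the surface also bears tooth-like denticles. The liver of cartilaginous fishes makes most plasma proteins, stores large amounts of lipid, and takes part in making the urea that these animals keep in their body fluids. The files pair no gene names with their assembly identifiers, and 0 of them matched the reference gene table. Keratin, mucin, collagen, plasma protein and urea cycle genes could therefore not be looked up, and neither tissue label could be checked against its marker genes. The assembled genes are described by their reads, levels and lengths.

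Most reads of both tissues fell on assembled genes that reached 10 reads in both libraries, which does not mean similar levels in both. At least 10 reads fell on 23007 assembled genes in skin and on 19571 in liver, and 16047 reached 10 reads in both (60.5% of the 26531). These 16047 held 88.8% of the reads in skin and 84.3% in liver. The assembled genes with 10 reads in skin and fewer than 10 in liver numbered 6960 and held 10.2% of the skin reads and 0.199% of the liver reads. Those with fewer than 10 in skin and at least 10 in liver numbered 3524 and held 0.0748% of the skin reads and 14.7% of the liver reads. Near the minimum, 960 assembled genes had exactly 10 reads in the library where they were higher, and 1091 had 9 and were left out.

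Levels are given in counts per 1000000 reads (CPM), and differences as skin minus liver in log2(CPM + 0.5), a scale on which low values differ by less than their true ratio. With the trimmed mean of M-values (TMM), which scales the libraries so that most assembled genes are centred near no difference, 2961 assembled genes (11.2%) stood at least 4-fold higher in skin, and 3498 (13.2%) stood lower by the same rule. The 2961 made up 34.5% of all skin reads and 0.743% of all liver reads. The 3498 made up 2.73% of all skin reads and 64.5% of all liver reads. Within 2-fold of each other lay 13232 assembled genes (49.9%), with 45.4% of the skin reads and 24.6% of the liver reads. With 1 library per tissue and 1 animal, no difference has a replicate check and no p-value was computed. A tissue with fewer cells of a type and a tissue with less RNA per cell cannot be told apart.

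The direction of the split rested on the scaling. With library totals alone, 4988 assembled genes (18.8%) were 4-fold or more higher in skin and 2276 (8.58%) were lower, so that 68.7% of the differing ones were higher in skin, against 45.8% with TMM. The median difference was 0.04 with TMM and 0.86 with library totals. TMM counted the skin library as 2.09 times as large as the liver library, whereas their totals stand at a ratio of 1.06, and a plain ratio of skin CPM over liver CPM was 0.507 times that from library totals. With the pseudocount the shift was smaller for low values. Within 2-fold lay 10222 assembled genes (38.5%) with library totals. The deposited TPM gave 5859 higher and 3028 lower in skin, or 65.9% higher. A pseudocount of 0.1 gave 4696 and 4548, and one of 2 gave 1676 and 1828. A higher or lower level below is relative to the scaling named beside it.

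**Figure D1:**
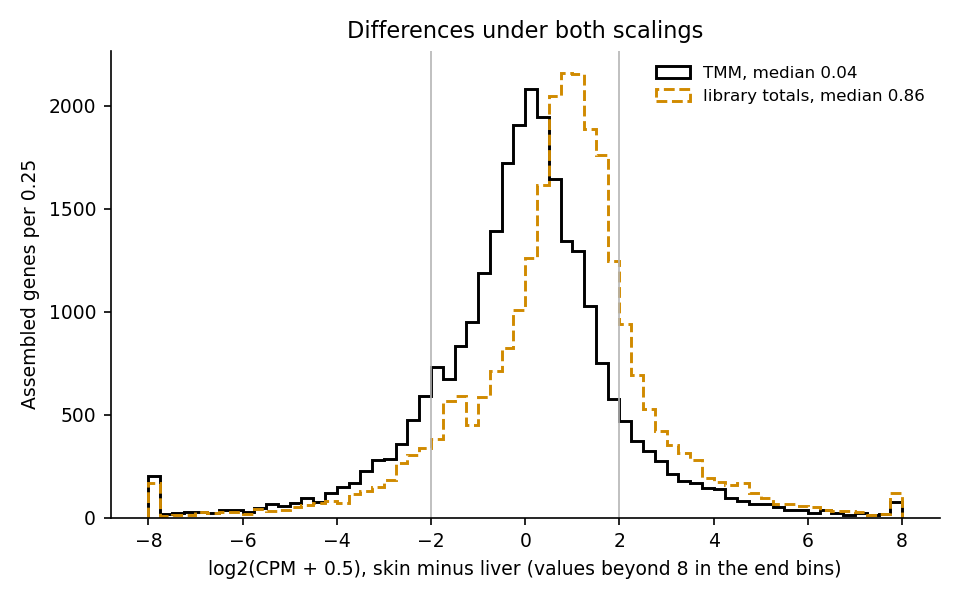
Histogram of the skin minus liver difference in log2(CPM + 0.5) for 26531 assembled genes, in steps of 0.25, with TMM (solid) and with library totals (dashed); grey lines stand at 4-fold. The whole distribution sits further toward skin with library totals, with a median of 0.86 against 0.04.

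The number of differing assembled genes also depended on how few reads could reach 4-fold. An assembled gene without a liver read needed 25 skin reads for the 4-fold rule with TMM, and one without a skin read needed 12 liver reads, whereas library totals asked for 18 and 17. Among the 11631 assembled genes with at least 100 reads in either library, 1983 (17.0%) were 4-fold or more higher in skin and 1550 (13.3%) lower with TMM. That order is the opposite of the one over all 26531. The minimum is set in reads, and with TMM 10 reads are 0.608 CPM in skin and 1.27 CPM in liver. A minimum in reads thus asks for a lower level in skin than in liver, and its part in the turn was not tested. With library totals these numbers were 3074 (26.4%) and 1144 (9.84%).

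Differences of 256-fold and more lay mostly on the liver side under both scalings. With TMM, at least 16-fold differences were found for 810 assembled genes higher in skin (3.05%) and 959 lower (3.61%). At least 256-fold, the numbers were 64 (0.241%) and 185 (0.697%), and at least 1024-fold, 18 (0.0678%) and 90 (0.339%). The 18 held 9.06% of the reads in skin and 0.00159% in liver. The 90 held 0.00714% of the reads in skin and 43.7% in liver. With library totals, 1261 (4.75%) and 716 (2.70%) differed by at least 16-fold, whereas 103 (0.388%) and 160 (0.603%) differed by at least 256-fold. At 1024-fold the numbers were 28 (0.106%) higher and 68 (0.256%) lower in skin. The larger side therefore changed with the size asked for under library totals, and was the lower one at each of these sizes with TMM.

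Differing assembled genes were most frequent among the most abundant. For those whose mean over both libraries was 10 to 100 CPM of library totals, 14.4% of 7818 were at least 4-fold higher in skin and 10.9% lower with TMM. From 100 to 1000 CPM, these shares were 18.5% and 20.8% of 1253. With library totals, 23.0% were higher and 7.20% lower from 10 to 100 CPM, and 29.6% and 17.2% from 100 to 1000. In that last class the larger side differed between the scalings. Above 1000 CPM, 27 of 109 were higher in skin (24.8%) and 54 lower (49.5%), and 18 lay within 2-fold. In this most abundant class, library totals gave 30 higher and 52 lower. The median size of the difference, in either direction, was 0.82 on the log2 scale from 10 to 100 CPM and 10.22 above 1000 CPM with TMM. The added 0.5 CPM limits how large a difference a low level can reach, and its part in this rise was not tested. From 1 to 10 CPM, 12.7% of 12374 were higher and 13.7% lower with TMM. Below 1 CPM, 0 of 4977 were higher and 641 lower with TMM, whereas library totals gave 257 higher and 220 lower. The 0 was fixed by the rule. A call higher in skin needed at least 25 skin reads with TMM, more than a mean below 1 CPM allows, and a call lower in skin needed 12 liver reads.

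**Figure D2:**
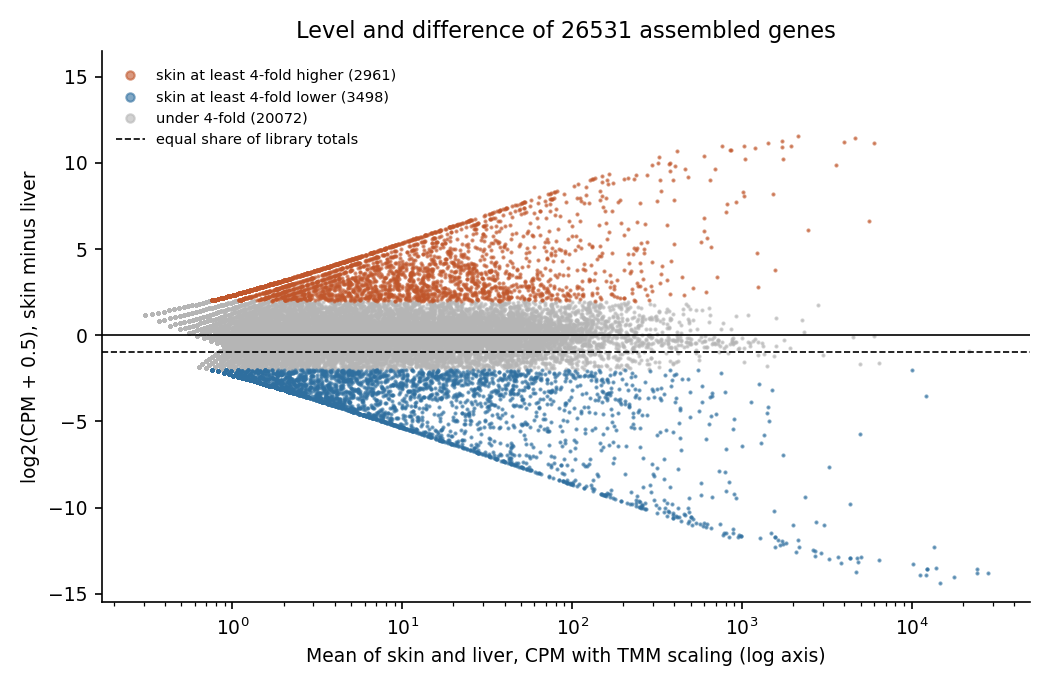
Mean level of skin and liver (CPM with TMM, log axis) against the skin minus liver difference in log2(CPM + 0.5) for each of 26531 assembled genes. Those at least 4-fold higher in skin (2961) and lower in skin (3498) are coloured, the dashed line marks equal shares of the library totals, and at the right end the lower arm reaches further from 0 than the upper one, to -14.34 against 11.58.

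The liver library was dominated by few assembled genes and the skin library was not. It took 516 assembled genes to hold 50% of the skin reads and 59 to hold 50% of the liver reads. For 25% of the reads the numbers were 58 in skin and 11 in liver, and for 90% they were 6545 and 3824. The 10 most abundant held 11.5% of the skin reads (exact binomial 95% interval 11.45 to 11.49) and 24.9% of the liver reads (24.83 to 24.88). The 50 most abundant held 23.8% of the reads in skin and 48.2% in liver, and 8 of them were in both lists. Together the lists hold 92 assembled genes. Without those 92, the skin library keeps 8923666 reads and the liver library 5623252, a ratio of 1.59.

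**Figure D3:**
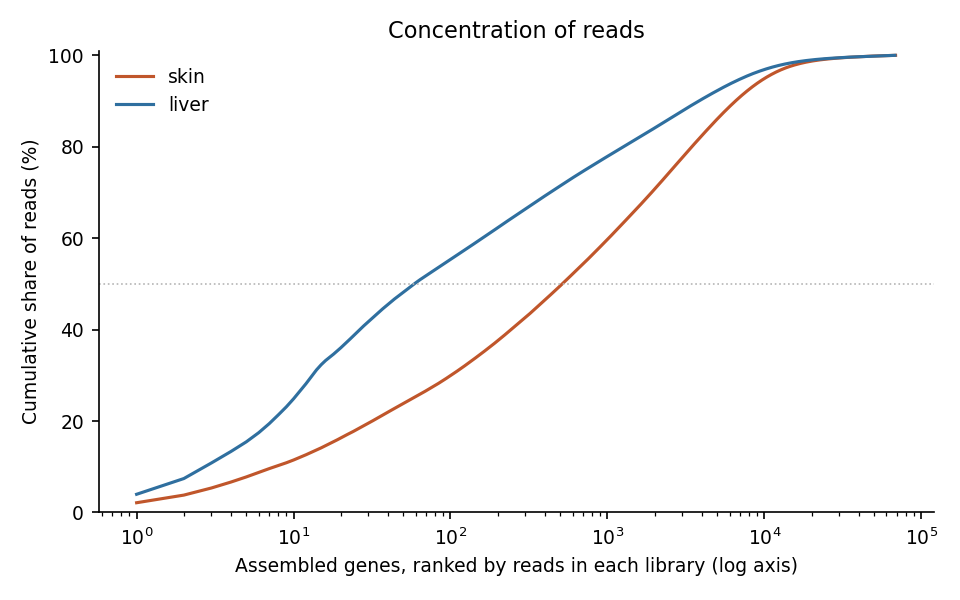
Cumulative share of reads (percent) over assembled genes ranked by reads within each library (log axis), for skin and liver. The dotted line marks 50%, which skin reaches at 516 assembled genes and liver at 59.

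Of the 10 assembled genes with the most skin reads, 6 were far lower in liver and 4 were well represented in both. The most abundant one (3168 bases) had 248486 reads in skin and 221828 in liver, where its rank was 6. It made up 2.12% of the skin reads and 2.004% of the liver reads, equal to 1.06-fold with library totals and 0.537-fold with TMM. The scaling alone thus set whether this abundant transcript read as equal or as lower in skin. The second (1764 bases) had 195895 reads in skin and 38 in liver, a 2472-fold difference with TMM (exact 95% interval 1801 to 3493) and 4871-fold with library totals. Canals gave 226 reads of it and receptor cells 34, so among these 4 libraries its reads lay almost wholly in skin. The seventh (2031 bases) and ninth (5809 bases) had 96071 and 71212 reads in skin, against 47835 and 37080 in liver. With TMM they stood at 0.963-fold and 0.921-fold of liver.

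By the lower end of the exact 2-sided interval of their ratio with TMM, the assembled genes leading the skin side were c91048_g6 and c76147_g1, whose gene names and functions are not known here. Assembled gene c91048_g6 (2140 bases, 3 transcripts) had 70003 reads in skin (4256 CPM) and 7 in liver (0.888 CPM), 4795-fold higher in skin with TMM (2327 to 11926) and 9449-fold with library totals. Canals gave 527 reads and receptor cells 3447. Assembled gene c76147_g1 (1929 bases, 2 transcripts) had 152979 reads in skin (9300 CPM) and 23 in liver (2.92 CPM), 3189-fold higher in skin (2125 to 5031) and 6285-fold with library totals. With 1516 reads in canals and 5187 in receptor cells, it too was lowest in liver among the 4 libraries.

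On the liver side, 9 of the 10 assembled genes with the most reads had fewer than 100 reads in skin. The first (1613 bases) had 57 reads in skin and 439801 in liver, lower in skin by 16093-fold with TMM (12421 to 21249) and 8166-fold with library totals. The second (2590 bases) had 48 in skin and 381081 in liver. The third, 14271 bases long, had 58 in skin and 378683 in liver, lower in skin by 13618-fold (10534 to 17934) and by 6910-fold with library totals. The exception was the sixth, the assembled gene that also led the skin list.

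By the same interval rule, the liver side was led by c69679_g1 and c88276_g1. Assembled gene c69679_g1 (1672 bases), number 5 by liver reads, had 15 reads in skin (0.912 CPM) and 231668 in liver (29376 CPM), lower in skin by 32214-fold with TMM (19531 to 57557) and 16345-fold with library totals. Assembled gene c88276_g1 (2926 bases), number 22 by liver reads, had 3 reads in skin (0.182 CPM) and 73441 in liver (9313 CPM). Its fold of 51060 with TMM (17471 to 247602), or 25908 with library totals, rests on those 3 skin reads. Neither was abundant elsewhere, with 35 and 10 reads in canals and 28 and 5 in receptor cells. These 4 were chosen for the size of their difference, so their folds are descriptions.

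**Figure D4:**
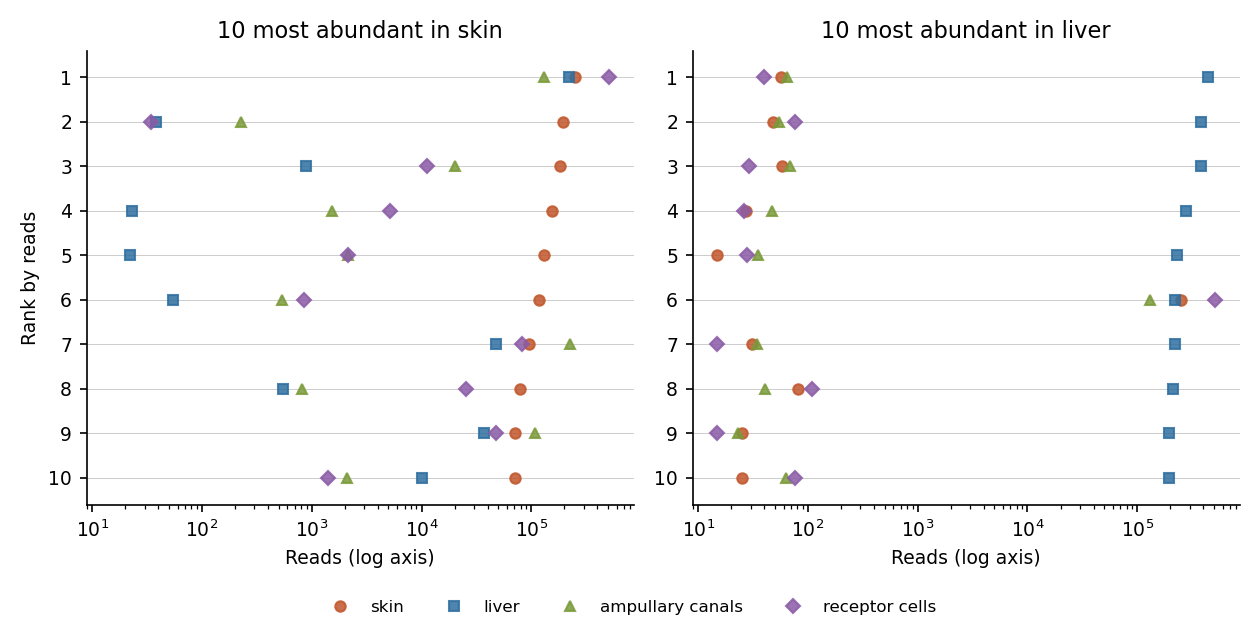
Reads (log axis) in skin, liver, ampullary canals and receptor cells for the 10 assembled genes with the most reads in skin (left) and in liver (right), by rank. In the right panel 9 of 10 lie below 100 reads in skin and at or above 193022 in liver, while the left panel has 4 with over 10000 liver reads.

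Assembled genes far higher in liver than in skin also had low median reads in canals and receptor cells, with wide ranges. Their low skin reads, like the low liver reads of the skin list below, follow from the 256-fold rule that chose them. Of the 50 most abundant in liver, 39 were at least 256-fold lower in skin, and they had 3 to 152 reads in skin (median 12), 3 to 391 in canals (median 13) and 1 to 6027 in receptor cells (median 15). Per 1000000 liver reads of the same assembled gene, the medians were 152 reads in skin, 183 in canals and 145 in receptor cells, and the highest values 2887, 5724 and 142949. The 22 of the skin list that were at least 256-fold higher in skin had 2 to 78 reads in liver (median 10), but medians of 344 in canals and 649.5 in receptor cells. Per 1000000 skin reads their median in liver was 171. Whether such low numbers are transcripts of the tissue or reads misplaced between libraries was not tested, and folds above 1000 rest on them.

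Reads grow with transcript length, so levels were also compared as TPM (transcripts per 1000000 transcripts), the authors' values per length. The highest TPM in skin belonged to a short assembled gene of 491 bases, number 3 by reads, with 65751 TPM in skin and 350.8 TPM in liver. Its 182684 skin reads and 881 liver reads stand at 99.4-fold with TMM scaling (93.05 to 106.3). The highest in liver, of 430 bases and number 12 by reads, had 7.48 TPM in skin and 90510 TPM in liver, from 16 and 175859 reads. An assembled gene of 698 bases had rank 2 in skin and rank 3 in liver, with 12951 TPM in skin and 28314 TPM in liver. By TPM the 50 highest took 27.4% of the skin total and 41.1% of the liver total, a narrower gap than by reads.

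The 8 assembled genes among the 50 most abundant of both libraries had 30909 to 248486 reads in skin and 32690 to 221828 in liver. With TMM all 8 were lower in skin, with log2 differences of -3.53 to -0.05, and 2 of them passed 4-fold. With library totals 3 were higher in skin and 5 lower, from -2.55 to 0.92. Those 5 were thus lower in skin under both scalings, and the direction of the other 3 rested on the scaling.

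Reads on 1 side only were found in both directions. In skin, 1909 assembled genes had at least 10 reads and none in liver (7.20%), and in liver, 1498 had at least 10 and none in skin (5.65%). They were mostly sparse: the median was 23 reads in either set, and the sets held 2.03% of the reads in skin and 2.59% in liver. At 100 reads or more, 347 (1.31%) had no liver read and 285 (1.07%) no skin read. At 1000 or more, 43 (0.162%) had no liver read and 60 (0.226%) no skin read, so the larger set changed with the minimum. No reads allow up to 3, which is 0.182 CPM in skin and 0.380 CPM in liver with TMM, and 0.256 and 0.271 CPM with library totals.

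The share with none on the other side was lower where the first side had more reads, up to 1000. From 10 to fewer than 30 reads, 16.2% of 6921 assembled genes in skin had no liver read and 13.0% of 6727 in liver had no skin read. From 300 to fewer than 1000 reads, the shares were 2.37% of 3800 and 3.51% of 2336. At 1000 reads or more the share was 2.21% of 1942 in skin and 6.09% of 986 in liver, the only one of these 5 read classes in which the liver share rose above that of the class before it.

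The most abundant assembled gene with no liver read (896 bases) had 13551 reads in skin, 1 in canals and 1 in receptor cells, at least 2166-fold higher in skin than in liver with TMM and at least 4268-fold with library totals. The next (2728 bases) had 10721 in skin and 1 each in canals and receptor cells. The third, of 1124 bases and 5 transcripts, had 5404 reads in skin and none in the other 3 libraries. On the other side, an assembled gene of 3555 bases had 13249 reads in liver and none in skin, at least 9211-fold lower in skin with TMM and at least 4674-fold with library totals, with 2 reads in canals and 3 in receptor cells. Another of 2729 bases had 12129 reads in liver, none in skin and 1 each in canals and receptor cells.

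The 2 sets differed in where else they had reads. Of the 1909 without a liver read, 729 had at least 10 reads in canals or receptor cells and 488 had no read in either. Of the 1498 without a skin read, 199 had at least 10 reads in canals or receptor cells and 859 had no read in either. Receptor cells held at least 10 reads for 631 of the skin set and 147 of the liver set, and canals for 389 and 104. At 100 reads or more, 64 of 347 in skin and 136 of 285 in liver had no read in canals or receptor cells. These counts are over assembled genes of single libraries, and their difference has no test. The same shares over all assembled genes with at least 10 reads in skin or in liver were not computed. Whether the contrast is particular to these sets was therefore not tested.

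Assembled genes found on 1 side only were short. Their median length was 729 bases in the skin set and 689 in the liver set, against 1396 for all with at least 10 reads in skin and 1524 for all with at least 10 in liver. Under 500 bases were 28.2% of the skin set and 27.4% of the liver set, against 9.81% and 7.74% of all such assembled genes in skin and liver. At 1000 reads or more the medians were 1793 bases in skin and 1688 in liver, against 2608 and 2189 for all. Fewer had several transcripts: 27.4% of the skin set and 28.2% of the liver set had at least 2, against 44.0% and 45.8% of all. At 1000 reads or more the gap was narrower, with 30.2% in skin and 33.3% in liver, against 41.8% and 36.1% of all. A short assembled gene can be a fragment of a longer transcript, so a side with no read for it need not lack the gene. Whether these are fragments was not tested.

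Assembled genes higher in skin were longer than those lower in skin. The median length was 1502 bases (quartiles 825.5 and 2467) for the 2961 at least 4-fold higher with TMM and 1053 bases (644.3 and 1878) for the 3498 lower, against 1283 over all 26531. With library totals the medians were 1489 and 1083. Among those with at least 100 reads in either library the gap narrowed to 1845 and 1680 bases with TMM. Within abundance classes the same order held from 1 to 10 CPM (1051 and 943), from 10 to 100 (1982 and 1767) and from 100 to 1000 (2435 and 2140). It turned above 1000 CPM, where the 27 higher in skin had a median of 1914 bases and the 54 lower 2062. Those within 2-fold from 10 to 100 CPM had a median of 2477 bases, longer than either differing group.

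By length class, the balance moved from lower to higher in skin with TMM. From 300 to 500 bases, 9.56% of 2562 assembled genes were at least 4-fold higher in skin and 16.6% lower. From 2000 to 5000 bases, 13.1% of 7003 were higher and 10.04% lower, and from 5000 to 10000 bases 10.99% of 937 were higher and 7.58% lower. With library totals more were higher than lower in each of the 7 length classes, from 15.7% against 9.96% at 500 to 1000 bases to 22.0% against 6.45% at 2000 to 5000. Short assembled genes were also the less abundant ones, with a median of 1.097 CPM at 300 to 500 bases and 17.2 CPM at 2000 to 5000 bases, and the part of depth in this pattern was not tested. Across the 26531 assembled genes, length and difference had Spearman's rho = 0.045 with TMM and 0.112 with library totals, as a description over assembled genes that share both libraries.

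**Figure D5:**
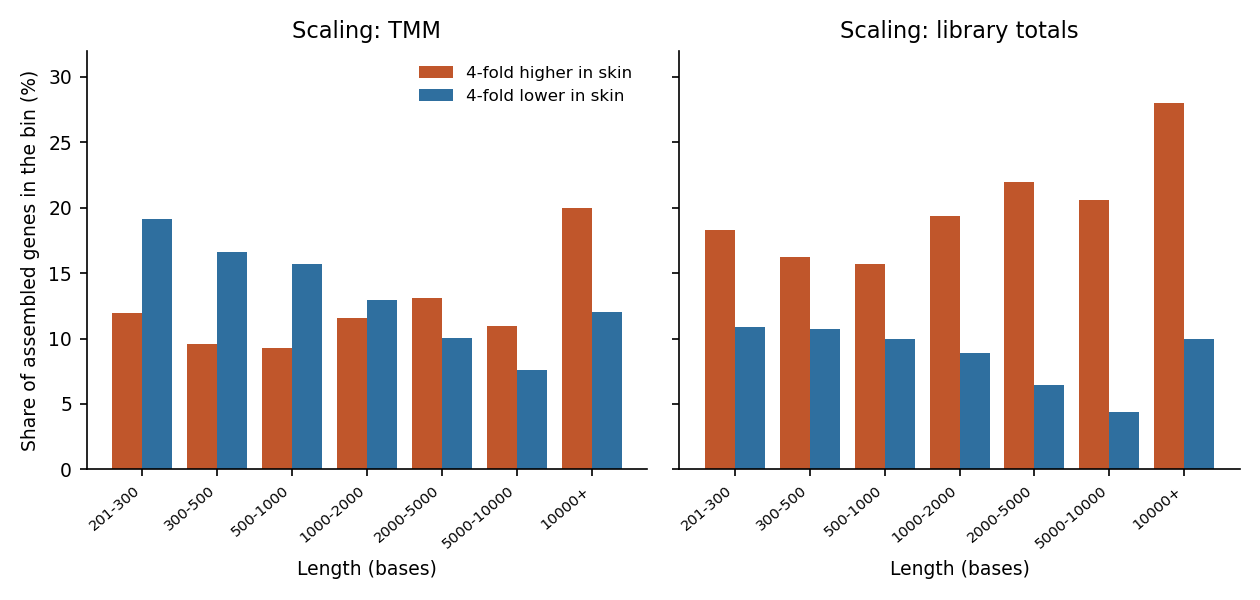
Share of assembled genes in each length class (percent) that were higher and lower in skin by 4-fold or more, with TMM (left) and library totals (right). With TMM the lower share exceeds the higher one below 2000 bases and falls under it above, and with library totals the higher share is above the lower one in all 7 classes; the last class holds 50 assembled genes.

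Weighted by reads, the mean and the median length gave opposite orders. The read-weighted mean length was 2633 bases in skin and 2878 in liver, and the read-weighted median 2170 in skin and 2076 in liver. Without the 92 most abundant assembled genes the mean was 2734 in skin and 2515 in liver, so the order of the means turned without them. The 92 include the assembled gene of 14271 bases, with 3.42% of the liver reads, and its part alone was not tested. The median length of the 50 most abundant in liver was 2144 bases, below the liver mean. Of 50 assembled genes of 10000 bases or more, 10 were at least 4-fold higher in skin, 6 lower and 25 within 2-fold with TMM. They held 71685 skin reads and 407783 liver reads, and the single assembled gene of 14271 bases described above had 92.9% of those liver reads. Without it, 29100 liver reads remain.

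Few assembled genes used transcripts of different length in the tissues. The length column is the mean length over an assembled gene's transcripts, weighted by their abundance in the library. Among 3066 assembled genes with at least 2 transcripts and at least 100 reads in both libraries, 51 (1.66%) were at least 1.5-fold longer in skin and 36 (1.17%) at least 1.5-fold shorter. For 83.1% the lengths agreed within a factor of 1.1. The widest ratio toward skin was 1580 bases in skin against 357.2 in liver, from 1826 and 400 reads. The widest the other way was 437.0 bases in skin against 1711 in liver, from 142 and 361 reads. Of the 36 shorter in skin, 11 were also at least 4-fold lower in skin and none at least 4-fold higher. Of the 51 longer in skin, 1 was higher and 4 were lower, where 9.36% of all 3066 differed by at least 4-fold in either direction. The share of the 3066 in each direction was not computed, so a link between shorter transcripts and a lower level was not tested.

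Identifiers that share their first part belong to 1 assembly cluster, which can hold copies, alleles or fragments of related transcripts. Of 2507 clusters with at least 2 of the 26531 assembled genes, 111 (4.43%) held both one at least 4-fold higher and one at least 4-fold lower in skin with TMM, and 112 did with library totals. In 112 clusters each measured member was at least 4-fold higher in skin, and in 105 each was at least 4-fold lower. With library totals these were 195 and 71. Over all 26531 assembled genes, 11.2% were at least 4-fold higher and 13.2% lower with TMM, and 18.8% and 8.58% with library totals. Whether the cluster counts differ from what these shares alone would give was not tested. The authors' program divides reads among such related sequences, so opposite members of 1 cluster are uncertain.

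The other libraries of the animal, which took no part in choosing these assembled genes, gave the levels beyond the pair. Of the 2961 at least 4-fold higher in skin, 2417 were highest in skin among the 4 libraries, 304 in canals and 240 in receptor cells (TMM over 4 libraries). Their median level was 15.2 CPM in skin, 0.449 CPM in liver, 1.69 CPM in canals and 2.49 CPM in receptor cells. Of the 3498 lower in skin, 3110 were highest in liver, 214 in canals and 174 in receptor cells. Their median level was 0.231 CPM in skin, 11.2 CPM in liver, 0.402 CPM in canals and 0.554 CPM in receptor cells. In both canals and receptor cells, 756 of the 2961 and 1566 of the 3498 had fewer than 10 reads. Since these sets were chosen for a high level in skin or in liver, a highest place in that tissue was favoured. Of the 13232 within 2-fold, 3642 were highest in skin and 2474 in liver. Among those 13232, 986 had fewer than 10 reads in both canals and receptor cells. The 2961 held 8.55% of the reads in canals and 9.01% in receptor cells. The 3498 held 8.71% of the reads in canals and 7.20% in receptor cells.

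Ampullary canals were set against liver by the same rule. Canals had 3064 assembled genes 4-fold or more higher than liver (11.5%) and 3873 lower (14.5%) of 26637 with TMM. With library totals 4896 were higher in canals (18.4%) and 2629 lower (9.87%), so the larger side turned as it did for skin, and the median difference was 0.78, where skin had 0.86. Both comparisons use the 1 liver library, and without replicates no difference between them was tested.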

How the data were processed

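RNA from 2 tissues of 1 skate was analysed, with 1 library each (skin 11716890 reads, liver 11071249), and 2 further libraries of the animal only described the same assembled genes. Per the submitters' processing notes the authors used RSEM 1.1.17, whose deposited expected counts give the reads it estimates for each assembled gene, without normalization. They were rounded (250 values in skin and 200 in liver were off a whole number by over 0.001). Per the file headers, the deposited TPM and FPKM are its length- and depth-scaled values, of which only TPM was used. For assembler, aligner and filters, the sources used here give nothing.

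Assembled genes with 10 or more reads in either library were kept. TMM factors over both (edgeR 4.0.16, R 4.3.3) were 1.40 for skin and 0.712 for liver. A pseudocount of 0.5 CPM was used, and 4-fold served as a rule of size. Shares and ratios carry exact 95% intervals (Clopper-Pearson, SciPy 1.17.1), and 0 reads were taken to allow 3. These cover counting error of independent reads only, not PCR copies, animals, dissection or scaling. Calls were tested on simulated data. Other scalings (library totals, TMM over 4 libraries, DESeq2 1.42.0 size factors), pseudocounts and minimums were tried.

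At most 2 identifiers per direction are named: those with 100 or more reads in either library whose ratio interval with TMM ends farthest from 1. The other assembled genes singled out are the most abundant by rank. The comparison, its thresholds and its lists were chosen with earlier results of these data known. The skin, liver, blood and muscle marker lists have no measured member, since 0 identifiers matched the 23250 genes of the reference table.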

Additional observations from a re-analysis of the deposited data

How the results depend on the processing

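No paired analysis was possible because skin and liver have a single library apiece, which also leaves nothing to omit. The counts of assembled genes were repeated 34 times with other settings, and 19 of the repeats came within 1.5 times the count in the report. Among the 19 are repeats with a minimum of 1 read, which could not change the 4-fold counts. With TMM such a call needs at least 25 skin reads or 12 liver reads. With library totals, 4988 were at least 4-fold higher and 2276 lower in skin, and with the deposited TPM 5859 were higher. A pseudocount of 0.1 gave 4696 higher, and one of 2 gave 1676 higher and 1828 lower. A minimum of 100 reads, with fewer assembled genes compared, gave 1550 lower. Asking 4-fold of the end of the counting interval, with the plain ratio and no pseudocount, made 39.98% of the differing ones higher in skin. Leaving the 50 most abundant of each library out of the totals made it 54.9%. The median difference was 0.86 with library totals, 0.81 with the deposited TPM, 0.15 with a minimum of 100 reads, 0.13 with TMM over 4 libraries, 0.019 with DESeq2 size factors, 0.049 with a pseudocount of 0.1 and 0.030 with one of 2.

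Reads on 1 side only became 347 in skin and 285 in liver with a minimum of 100 reads, and 4096 and 2405 when up to 3 reads were allowed on the other side. The share of the 50 most abundant became 27.4% in skin and 41.1% in liver with the deposited TPM, and 24.6% and 48.7% with cluster sums. Median lengths of the assembled genes higher and lower in skin became 1489 and 1083 with library totals, 1845 and 1680 with a minimum of 100 reads, and 1704 and 1413 at 16-fold. Isoform-weighted lengths differed for 5 (longer in skin) and 1 (shorter) with 1000 reads in both, and for 23 and 10 at 2-fold. For movements that do not follow from fewer assembled genes or a larger pseudocount, the cause was not tested. The 24 values of the named assembled genes kept their direction, as their choice for large differences fixes. Of these, 11 lay outside the counting interval of the plain ratio with TMM. For c88276_g1 the main value, -13.74 on the log2 scale with the pseudocount, already lay outside that interval (17471 to 247602-fold lower in skin). Its other values outside the interval therefore do not show a move by the setting. Depth limits what an empty side shows, and the scaling sets the level. With TMM 0 reads in skin allow 0.182 CPM and 0 in liver 0.380 CPM, and with library totals 0.256 and 0.271 CPM.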
